A study of Mus musculus with 16 samples.

Results

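The genes described here are 9 genes of renal water handling: the aquaporins Aqp1, Aqp2, Aqp3, Aqp4, Aqp6, Aqp7 and Aqp11 and the vasopressin receptor genes Avpr2 and Avpr1a. They were chosen by name, and all 9 were found in the glomerular table of 24722 genes and in the cortex table of 34264 genes. RNA had been sequenced from isolated glomeruli (the filtering tufts) and from renal cortex of wild-type mice aged 24 weeks, in 16 libraries. Control mice are labelled control with no treatment named, and diabetic mice had received HFD/STZ, that is, a high-fat diet together with streptozotocin, which destroys the beta cells of the pancreas. Each tissue had 4 control and 4 diabetic libraries, all of batch 1. Diet, toxin and high glucose cannot be told apart in these groups, and the labels give neither the sex of the mice nor whether libraries of a group came from separate animals. The p-values therefore measure the spread between these libraries, which may be technical.

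Aquaporins are membrane channels that let water, and in the aquaglyceroporins also glycerol, cross cell membranes. In the kidney, AQP1 carries most water reabsorption in the proximal tubule, and AQP7 and AQP11 also belong to proximal tubule cells, AQP7 at the brush border and AQP11 inside the cell. In the collecting duct, vasopressin binds the V2 receptor (Avpr2) on principal cells, cyclic AMP rises, and AQP2 moves to the apical membrane. Water then leaves through AQP3 and AQP4 on the basolateral side. AQP6 lies in vesicles of acid-secreting intercalated cells, and the V1a receptor (Avpr1a), which signals through phospholipase C, is known from intercalated cells and from contractile cells of vessels and glomeruli.

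On GRCm38, Aqp1 spans chromosome 6 from 55336432 to 55348555 and Aqp11 chromosome 7 from 97724006 to 97738289. Aqp2 (chromosome 15, 99579055 to 99584547) and Aqp6 (99601400 to 99605477) are close together, as are Aqp7 (chromosome 4, 41033074 to 41048139) and Aqp3 (41092722 to 41098183). Avpr1a spans chromosome 10 from 122448499 to 122453452 and Avpr2 chromosome X from 73892102 to 73895502. Of the exonic bases of Avpr2, 81.3% (2347 of 2886) lie over Arhgap4, a gene of the opposite strand that encodes a GTPase-activating protein. Whether the authors' counting used strand is not given in the sources used here, so reads of Avpr2 and Arhgap4 cannot be told apart, and both are reported.

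The promoters of 3 members are printed: Aqp2, the channel that vasopressin regulates, and Aqp3 and Avpr1a, which were called lower in diabetic cortex. The call of Avpr1a depended on the settings. Aqp11 was called lower there too, and its promoter is not printed. Each printed promoter is the 249 bases before the annotated start, 5′ to 3′ on the strand of the gene, from RefSeq (GRCm38.p6). The intervals are chr15:99578806-99579054 on the plus strand, chr4:41098185-41098433 on the minus strand and chr10:122448249-122448497 on the plus strand. Capitals mark matches to 3 short motifs searched on both strands. The core of the cyclic AMP response element was TGACG. The motif bound by GATA factors was AGATAA. The motif of the core promoter was TATAAA, the TATA box.
Aqp2: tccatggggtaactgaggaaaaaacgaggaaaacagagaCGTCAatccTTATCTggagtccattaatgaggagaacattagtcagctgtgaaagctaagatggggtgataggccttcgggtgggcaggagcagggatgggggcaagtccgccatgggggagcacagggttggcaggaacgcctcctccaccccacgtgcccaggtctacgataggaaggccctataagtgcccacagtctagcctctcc
Aqp3: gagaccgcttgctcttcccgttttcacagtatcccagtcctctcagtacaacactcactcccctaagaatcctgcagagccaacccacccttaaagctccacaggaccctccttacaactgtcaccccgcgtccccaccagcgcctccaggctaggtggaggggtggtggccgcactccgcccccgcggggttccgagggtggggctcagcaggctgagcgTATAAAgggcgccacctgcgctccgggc
Avpr1a: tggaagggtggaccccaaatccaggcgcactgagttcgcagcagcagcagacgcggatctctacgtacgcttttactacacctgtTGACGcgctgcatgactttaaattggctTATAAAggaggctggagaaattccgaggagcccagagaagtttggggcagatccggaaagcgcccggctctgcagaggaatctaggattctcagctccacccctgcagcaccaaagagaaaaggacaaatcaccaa
Of 32851 mouse promoters of this length, 17.7% held TGACG, 10.0% AGATAA and 12.4% TATAAA. Among the 8 members with a promoter in the table, TGACG occurred in Aqp2, 210 bases before the start on the opposite strand, and in Avpr1a, 164 bases before the start. AGATAA occurred in Aqp2, 201 bases before the start on the opposite strand, and in Aqp7. TATAAA occurred in Aqp3 (28 bases before the start), in Avpr1a (136 bases before it) and in Avpr2 (44 bases before it on the opposite strand). The full cyclic AMP response element (TGACGTCA), held by 1.5% of promoters, occurred in none of the 8. A match describes these letters and is not a measured binding site.

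Total counts were 36339294 to 41876031 in glomerular libraries and 57473100 to 72352656 in cortex libraries. Glomerular control libraries 3 and 4 were 17.3 times closer to each other by chi-square than any other pair of their group, and for diabetic libraries 1 and 4 the factor was 10.0. Each of these pairs was summed to 1 sample, so glomeruli had n = 3 samples per group. Podocyte markers, which define the glomerulus, summed to 4572 to 5752 CPM (counts per 1000000 mapped to genes, with TMM scaling) in control glomeruli against 341 to 372 CPM in control cortex. They were lower in diabetic glomeruli (2151 to 4220 CPM, 3 of 8 markers called lower, and none without diabetic libraries 1, 3 and 4). Control cortex library 4 differed from the other control cortex libraries by a chi-square per gene of 84.8 to 105, against 19.8 to 30.7 among those. Diabetic glomerular samples 1+4 and 3 held more proximal tubule RNA than the controls. Proximal tubule markers summed to 1366 and 646 CPM there, against 81.4 to 104 CPM in controls and 109 CPM in diabetic sample 2. Results that rest on these libraries are given with and without them.

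In control cortex, the members covered a wide range of levels on the FPKM scale, which divides by gene length and library size. Aqp1 was highest at 283 ± 71.9 FPKM (SD, n = 4), followed by Aqp2 at 79.6 ± 30.04 FPKM and Aqp3 at 40.7 ± 3.16 FPKM. Below these came Aqp6 (19.8 ± 12.3 FPKM), Aqp7 (8.62 ± 1.58 FPKM) and Aqp11 (5.49 ± 0.298 FPKM). Aqp4 (4.02 ± 2.74 FPKM) and the receptors Avpr1a (3.64 ± 1.14 FPKM) and Avpr2 (1.89 ± 0.604 FPKM) were lowest. Ranges of neighbours in this order overlapped between Aqp3 and Aqp6, Aqp11 and Aqp4, Aqp4 and Avpr1a, and Avpr1a and Avpr2. Without control library 4, Aqp6 (12.7 to 14.8 FPKM) lay below Aqp3 (36.9 to 42.2 FPKM) and Aqp4 (1.57 to 4.52 FPKM) below Aqp11 (5.42 to 5.83 FPKM). Then Avpr1a (3.75 to 4.89 FPKM) came before Aqp4, and their ranges overlapped, as did those of Aqp4 and Avpr2 (1.19 to 1.97 FPKM). The order was the same in diabetic cortex except that the receptors changed places, Avpr2 at 2.13 ± 0.185 and Avpr1a at 2.07 ± 0.523 FPKM, with overlapping ranges.

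In control glomeruli, the order was different, with the V1a receptor first. Avpr1a was at 2.08 ± 0.217 FPKM (SD, n = 3), above Aqp1 at 1.70 ± 0.169 FPKM and Aqp2 at 1.05 ± 0.111 FPKM. These ranges did not overlap with libraries 3 and 4 averaged. Over the 4 separate libraries, those of Avpr1a (1.73 to 2.28 FPKM) and Aqp1 (1.35 to 1.82 FPKM) did overlap. Aqp3 was at 0.419 ± 0.0122 FPKM and Aqp11 at 0.305 ± 0.0740 FPKM. Avpr2, Aqp6 and Aqp4 were below 0.1 FPKM in every control glomerular sample, and Aqp7 had 0 counts in all 4 control libraries. In diabetic glomeruli Aqp2 had the highest mean (11.8 ± 10.9 FPKM), and the ranges of all neighbours in the order overlapped. For Aqp11 the gene length implied by the 2 tables differed (1322 bases in the glomerular table, 10186 in the cortex table), and the glomerular length was 2.08 times the cortex length for Aqp6 and 0.619 times for Avpr2. Levels of these 3 genes in the 2 tissues can differ for that reason alone.

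In renal cortex, 3 members were lower in diabetic mice and none was higher. Aqp3, the basolateral exit channel of principal cells, fell from a mean of 81.4 to 53.6 CPM, the intracellular Aqp11 of the proximal tubule fell from 56.8 to 37.1 CPM, and Avpr1a, the V1a receptor gene, fell from 10.8 to 5.86 CPM with a call that depended on the settings. The largest aquaporin mRNAs, Aqp1 and Aqp2, and the V2 receptor gene Avpr2 did not pass the test. Of 19228 genes tested in cortex 9.29% were called lower and 20.1% in either direction, against 3 of 9 members. All 5 red blood cell markers were called lower in the same comparison, with a median of -1.11 and sums of 714 to 1294 CPM in controls and 338 to 578 CPM in diabetic libraries. Their part in the members' values was not tested. The median log2 fold change of the members, -0.44, stood beside -0.00 over all genes tested. In bulk tissue, fewer cells of a type and less RNA per cell cannot be told apart.

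Aqp3 was at 84.8, 82.7, 74.5 and 83.5 CPM in control cortex libraries 1 to 4 and at 50.8, 48.5, 55.1 and 59.9 CPM in diabetic libraries 1 to 4. All 4 diabetic values were below all 4 control values, and control library 4 lay among the other controls. The log2 fold change was -0.60 ± 0.08 (SE), with an adjusted p of 0.00103 (quasi-likelihood test of edgeR, Benjamini-Hochberg). It lay between -0.66 and -0.55 and stayed past the threshold in all 15 alternatives. Of 8 other principal cell markers, 3 were called lower and 1 higher, with a median of -0.34. Relative to the median of those markers, Aqp3 was 0.49 to 0.75 log2 units above in controls and 0.39 to 0.59 above in diabetic samples, ranges that overlapped.

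Aqp11, whose loss in mice causes cysts of the proximal tubule, was at 57.8, 63.1, 56.3 and 50.0 CPM in control cortex and at 41.2, 35.7, 34.0 and 37.5 CPM in diabetic cortex. The groups did not overlap, and the lowest control value was that of library 4. The log2 fold change was -0.61 ± 0.08 (edgeR adjusted p = 0.00133), and it stayed past the threshold in all 15 alternatives (-0.67 to -0.47). Of 14 proximal tubule markers 8 were called lower and 1 higher, with a median of -0.41 in the same libraries. Aqp11 stood 4.06 log2 units below the median of these markers in controls and 4.31 below it in diabetic samples. Values ran from -4.230 to -3.714 in controls, library 4 highest, and from -4.381 to -4.232 in diabetic samples. These ranges did not overlap but nearly met.

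Avpr1a was at 11.1, 15.0, 11.1 and 5.88 CPM in control cortex and at 4.02, 6.15, 7.19 and 6.07 CPM in diabetic cortex. Controls 1 to 3 were above every diabetic value, and control library 4 lay within the diabetic range, so the groups overlapped. The log2 fold change was -0.87 ± 0.27 with an edgeR adjusted p of 0.0468. Without control library 4 it was -1.08 with an adjusted p of 0.00306, but the call was lost in 12 of 15 alternatives, with adjusted p values up to 0.113. Of 8 intercalated cell markers 5 were called lower and none higher, with a median of -0.45. Relative to their median, Avpr1a was 2.12 log2 units lower in controls and 2.23 lower in diabetic samples, with overlapping ranges.

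**Figure D1:**
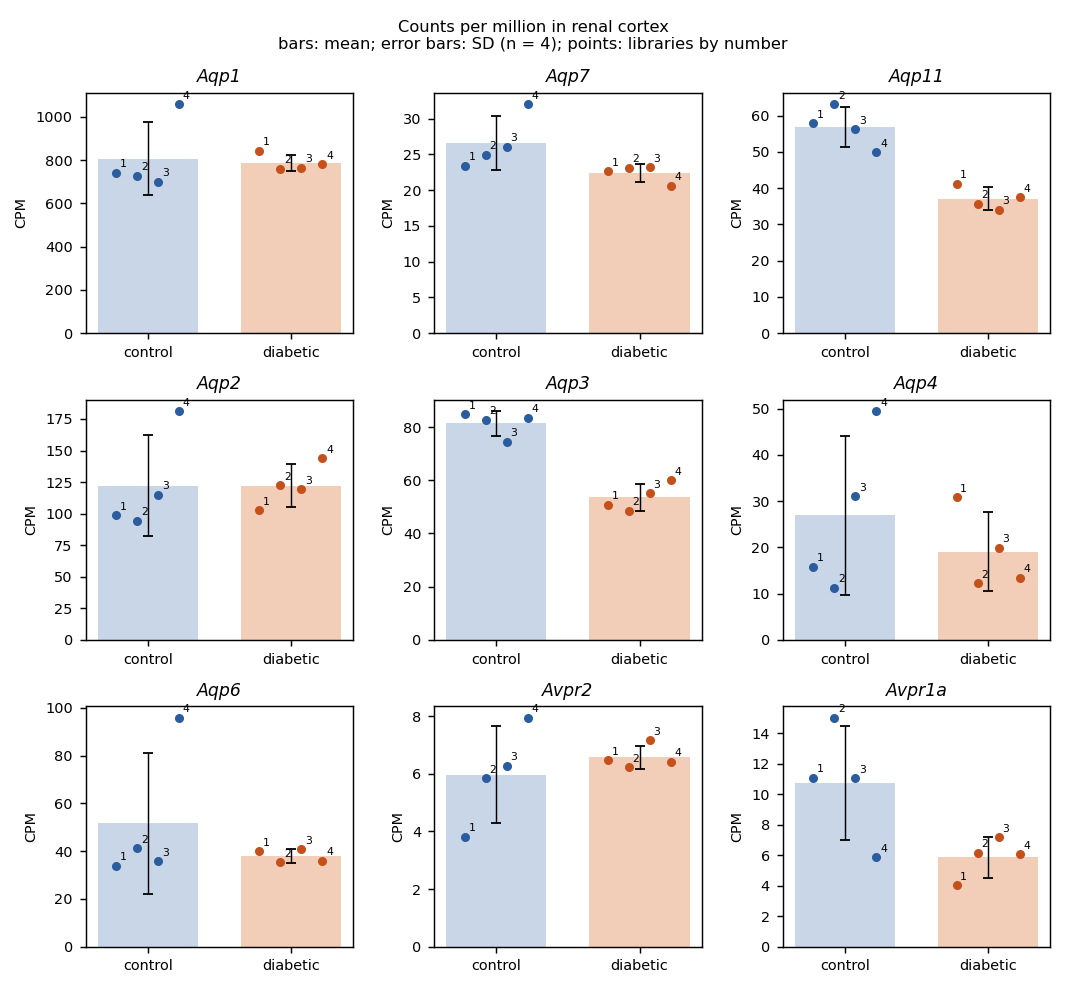
Level of each of the 9 genes in renal cortex in CPM, with bars for the mean, error bars for the SD (n = 4) and numbered points for the libraries of control and diabetic mice. The diabetic points of Aqp3 and Aqp11 lie below all control points, and control library 4 is the highest point for Aqp1, Aqp2, Aqp4, Aqp6, Aqp7 and Avpr2.

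The other members did not pass the test in cortex. Aqp1 had control values of 743, 728, 701 and 1059 CPM and diabetic values of 844, 762, 765 and 782 CPM, a log2 difference of -0.04 ± 0.13 (edgeR adjusted p = 0.880). Its diabetic values lay inside the control range. Aqp2, the vasopressin-regulated channel, had control values of 98.6, 94.4, 115 and 181 CPM and diabetic values of 103, 123, 120 and 144 CPM (-0.00 ± 0.21, adjusted p = 0.999). Both groups averaged 122 CPM, and control library 4 alone was above the diabetic range. For Avpr2 controls gave 3.82, 5.85, 6.28 and 7.94 CPM and diabetic libraries 6.47, 6.22, 7.15 and 6.41 CPM, which again lay inside the control range (0.14 ± 0.20, adjusted p = 0.679). Arhgap4, which shares its locus, differed by 0.01 ± 0.14.

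The glycerol channel Aqp7 was at 23.4 to 32.0 CPM in controls and at 20.6 to 23.2 CPM in diabetic libraries. These ranges did not overlap, as was so for 24.9% of all genes tested in cortex, but the change missed the threshold (-0.25 ± 0.10, edgeR adjusted p = 0.103). Of the 5 markers of the proximal straight tubule, the segment where AQP7 is known to lie, 3 were called lower, with a median of -0.72. Aqp4 ranged from 11.3 to 49.5 CPM in controls and from 12.2 to 30.9 CPM in diabetic libraries (-0.50 ± 0.51, adjusted p = 0.548). Aqp6 ranged from 33.9 to 95.8 CPM in controls and from 35.3 to 40.9 CPM in diabetic libraries (-0.44 ± 0.34, adjusted p = 0.411).

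Much of the control spread in cortex came from library 4. Its Aqp6 level was 2.59 times the mean of controls 1 to 3, and its Aqp4 level 2.55 times. Aqp2 stood at 1.77 times, Avpr2 at 1.49 times, Aqp1 at 1.46 times and Aqp7 at 1.29 times that mean. Aqp3, at 1.04 times, lay close to the other controls, Aqp11 was at 0.846 times, and Avpr1a at 0.475 times. In the same library the 4 markers of the renal medulla had a median ratio of 2.39 (their sum was 296 CPM against 67.9 to 172 CPM in controls 1 to 3). The median ratio was 1.43 for markers of the proximal straight tubule, 0.727 for those of the proximal tubule, 0.916 for principal cells and 0.813 for intercalated cells. The part of these differences in the members' values was not tested. Without library 4 the log2 differences were 0.25 for Aqp2, 0.12 for Aqp1, 0.04 for Aqp6, -0.02 for Aqp4 and 0.30 for Avpr2, none past the threshold.

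**Figure D2:**
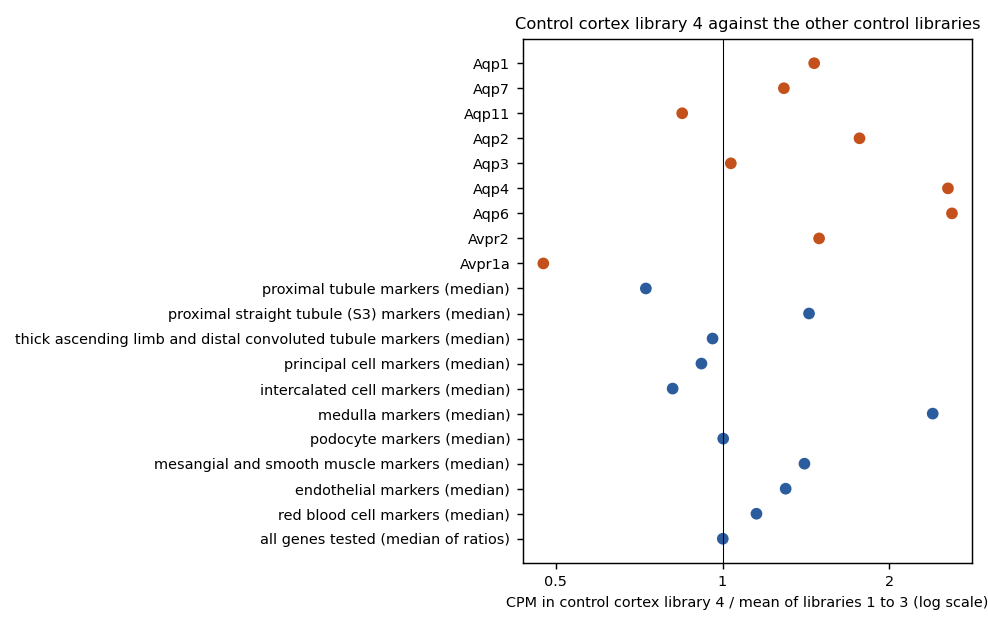
Level in control cortex library 4 divided by the mean of control libraries 1 to 3, on a log axis, for the 9 genes and, as medians of ratios, for cell type marker lists and all genes tested. The adipocyte list, whose median ratio was 0, cannot be drawn on this axis. Aqp4 and Aqp6 lie near the medulla markers above 2, and Avpr1a, at 0.475, lies lowest of the points drawn.

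In isolated glomeruli, 4 members rose in diabetic mice: Aqp1, Aqp2, Aqp6 and Avpr2. No member was called lower, and the V1a receptor gene, the member with the highest level in control glomeruli, did not pass the test. Of 15238 genes tested 37.5% were called and 19.4% were called higher. Of the 9 members 7 passed the filter on low counts, and Aqp6 and Avpr2 did so only through the diabetic samples, so the count describes these genes and supports nothing further. The rises of Aqp1, Aqp2 and Aqp6 were carried mainly by samples 1+4 and 3, the samples with more proximal tubule RNA. Avpr2 rose in sample 2 as well, to 1.21 CPM beside 1.38 CPM in sample 3. Principal cell markers other than Npnt and Gata3 also summed to 111 CPM in sample 2, against 6.24 to 9.66 CPM in controls. On average over diabetic samples, most of this sum came from Tfcp2l1 and Hsd11b2. The lower podocyte markers in the diabetic samples were given above. The part of any of these markers in the members' values was not tested.

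The V2 receptor gene Avpr2 had 1, 6, 4 and 5 counts in the 4 control libraries and 146, 53, 58 and 111 counts in diabetic libraries 1 to 4. This was 0.0269, 0.159 and 0.114 CPM in control samples 1, 2 and 3+4, against 3.15, 1.21 and 1.38 CPM in diabetic samples 1+4, 2 and 3. Every diabetic sample, including sample 2 with proximal tubule markers near the control level, was above every control sample. The log2 fold change was 4.21 ± 0.64 (edgeR adjusted p = 0.00361). Without diabetic libraries 1, 3 and 4 it was 3.55 (adjusted p = 0.0429), where the lone remaining sample is assumed to vary like the other groups, and the call held in all 19 alternatives.

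Arhgap4, which overlaps Avpr2, rose in the same samples, from 1.05, 1.83 and 1.42 CPM to 4.00, 2.51 and 5.58 CPM (1.49 ± 0.37, edgeR adjusted p = 0.0205). The highest diabetic sample was 3 for Arhgap4 and 1+4 for Avpr2. How many of the reads counted for either gene came from the other was not tested. Thick ascending limb and distal convoluted tubule markers, another site of the V2 receptor, summed to 338 to 512 CPM in controls and to 2330, 422 and 1275 CPM in diabetic samples 1+4, 2 and 3. Principal cell markers summed to 236 to 274 CPM in controls and to 510, 397 and 291 CPM in those samples. Most of this sum came from Npnt and Gata3, which were called higher in control glomeruli than in control cortex. The other 6 markers summed to 6.24 to 9.66 CPM in controls and to 202.1, 111 and 117 CPM in diabetic samples 1+4, 2 and 3. This sum, too, was above the controls in sample 2. On average over diabetic samples, Tfcp2l1 (98.7 ± 38.0 CPM) and Hsd11b2 (29.8 ± 12.2 CPM) made up most of it. Scnn1b (7.49 ± 6.15 CPM) and Scnn1g (5.60 ± 4.09 CPM) added little, and values of single markers in sample 2 are not given. Of 7 principal cell markers tested 4 were called higher, and 3 without diabetic libraries 1, 3 and 4.

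Aqp2 was at 1.72, 1.38 and 1.65 CPM in control glomeruli and reached 30.1, 1.67 and 15.2 CPM in diabetic samples 1+4, 2 and 3. Samples 1+4 and 3 were far above the controls, whereas sample 2 lay among them, so the groups overlapped. The log2 fold change was 3.31 ± 0.91 (edgeR adjusted p = 0.0301), and 0.10 without diabetic libraries 1, 3 and 4. Aqp3 had the same pattern, with control values of 0.779, 0.794 and 0.788 CPM against diabetic values of 8.91, 0.548 and 4.69 CPM. Sample 2 was below all controls, and the difference missed the threshold (2.59 ± 0.87, adjusted p = 0.0557, and -0.50 without those libraries). Aqp3 was called higher in 5 of 19 alternatives, with adjusted p values of 0.0466 with library totals, 0.00390 with DESeq2, 0.00893 with separate libraries, 0.0332 with separate libraries and the replicate block, and 0.00356 without diabetic sample 2.

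Aqp1 was at 5.35, 5.32 and 4.37 CPM in control glomeruli and reached 37.3, 7.15 and 16.7 CPM in diabetic samples 1+4, 2 and 3. All diabetic values were above the controls, sample 2 by the least. The log2 fold change was 2.03 ± 0.56 (edgeR adjusted p = 0.0292). Aqp6 was at 0.161, 0.265 and 0.0890 CPM in control glomeruli and reached 3.49, 0.434 and 0.882 CPM in diabetic ones (3.30 ± 0.90, adjusted p = 0.0292), again without overlap, as for 54.2% of all genes tested. Without diabetic libraries 1, 3 and 4 these changes were 0.54 for Aqp1 and 1.42 for Aqp6, and neither passed the threshold. The calls of Aqp1, Aqp2 and Aqp6 were also lost without control sample 1, 2 or 3+4 or diabetic sample 1+4. Those of Aqp1 and Aqp2 were lost with no filter (edgeR adjusted p = 0.0748 and 0.0961), and that of Aqp2 without diabetic sample 3 (0.0590). With limma on log2(FPKM + 1) all 3 were lost, and on log2(FPKM + 0.1) those of Aqp2 and Aqp6.

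Aqp7 and Aqp4 did not pass the filter on low counts. Aqp7 had no count in any control library and 18, 1, 11 and 24 counts in diabetic libraries 1 to 4. Its diabetic mean was at least 13.6-fold higher than the control group when that group is set to a floor of 3 counts in all, a limit for counting error only. Diabetic sample 2, with 1 count, was at 0.0228 CPM, near that floor of 0.0195 CPM. The control values of Aqp4 were 0.107, 0.159 and 0.0763 CPM and its diabetic values 1.43, 0.160 and 0.524 CPM, with sample 2 at the top of the control range. Those of Aqp11 were 0.376, 0.370 and 0.547 CPM in control and 1.89, 0.228 and 0.834 CPM in diabetic glomeruli. Sample 2 was below the controls, and the change was not called (1.19 ± 0.70, edgeR adjusted p = 0.223, and -0.91 without diabetic libraries 1, 3 and 4). Without diabetic sample 2 it was 1.65 and was called (adjusted p = 0.0488).

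Avpr1a differed from the other members in glomeruli. Its control values were 6.66, 5.98 and 5.21 CPM, and samples 1+4, 2 and 3 of diabetic mice gave 6.85, 2.49 and 3.98 CPM. Samples 2 and 3 were below all controls and sample 1+4 was above them. The log2 difference was -0.41 ± 0.37 (edgeR adjusted p = 0.409), and -1.23 without diabetic libraries 1, 3 and 4, in neither case past the threshold. Markers of mesangial and smooth muscle cells, another site of this receptor, fell in 5 of 10 genes with a median of -1.07. Over all genes tested in glomeruli, 37.5% were called in either direction. The sum of these markers was 17541 to 20028 CPM in controls and 3474 to 6226 CPM in diabetic samples.

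**Figure D3:**
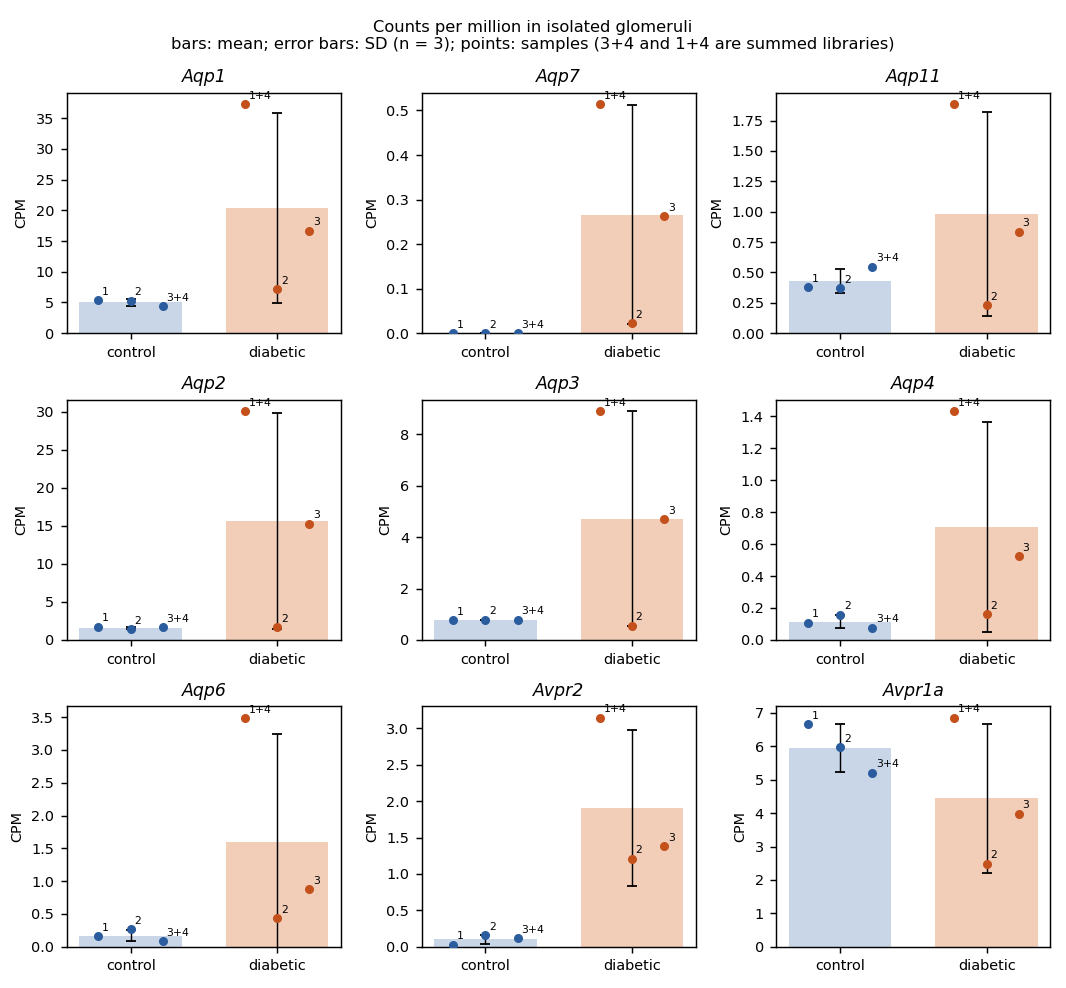
Level of each of the 9 genes in isolated glomeruli in CPM, with bars for the mean, error bars for the SD (n = 3; cut at 0 for Aqp6) and points for the samples, where 3+4 and 1+4 are summed libraries. Diabetic sample 1+4 is highest for every gene, and sample 2 lies near the control values except for Avpr2 and Avpr1a.

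To set these rises beside the tubule RNA in the same samples, each was expressed as a percentage of the level in diabetic cortex. The rise of Avpr2 was 38.4%, 13.4% and 15.9% of its cortex level in samples 1+4, 2 and 3. Aqp2 gave 19.3%, 0.0318% and 9.12%, and Aqp3 12.6%, -0.379% and 5.95%. The principal cell markers had medians of 22.03%, 3.02% and 8.48% in these samples, so Avpr2 stood above the list median in all 3 samples. Aqp2 lay near the list median in samples 1+4 and 3 and far below it in sample 2. This list includes Npnt and Gata3, which were called higher in control glomeruli than in control cortex. Percentages of single markers are not given. Aqp6 gave 7.23%, 0.544% and 1.53%, beside 12.9%, 0.213% and 5.56% for intercalated cell markers.

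The proximal genes Aqp1 and Aqp7 gave smaller percentages than Aqp2, Aqp3 and Avpr2 in samples 1+4 and 3, but in sample 2 both were above Aqp2 and Aqp3. Aqp1 gave 3.40%, 0.205% and 1.21%, beside 6.44%, -0.00% and 2.97% for proximal tubule markers. Aqp7 gave 1.90%, 0.0810% and 0.956%, and markers of the proximal straight tubule 0.880%, 0.0724% and 0.513%. Aqp4 gave 5.72%, 0.183% and 1.76%, and Aqp11 3.26%, -0.456% and 0.888%. Arhgap4 gave 13.7%, 5.31% and 21.5%. Thick ascending limb and distal convoluted tubule markers gave the highest medians of the lists in samples 1+4 and 3, at 32.5%, 0.157% and 15.8%. These percentages compare 2 tables made with different counting and are descriptions. On the FPKM scale, an alternative chosen after the data were seen, Aqp11 gave 33.7%, -3.24% and 9.53%, above Aqp2 in sample 1+4 (27.2%), so the place of Aqp11 depends on the scale. There Avpr2 gave 79.9%, 29.2% and 32.5%, and Aqp6 4.51%, 0.382% and 0.943%, and in sample 2 Aqp7 (0.101%) lay below Aqp2 (0.272%).

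**Figure D4:**
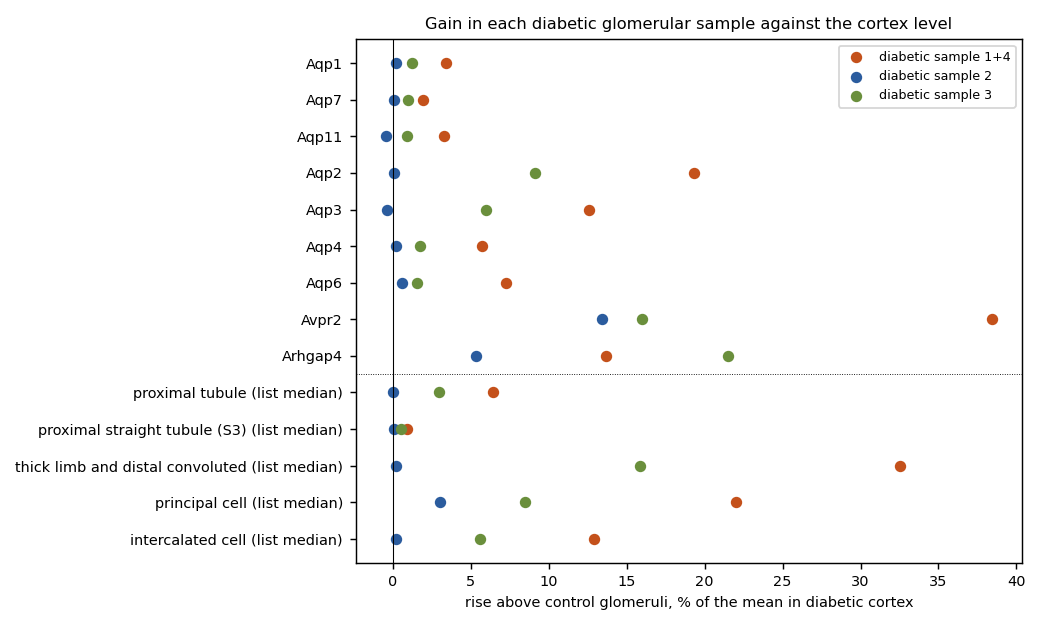
Rise of each gene above control glomeruli in each diabetic glomerular sample, as a percentage of its mean level in diabetic cortex (x axis), with medians of marker lists under the dotted line. In sample 2 Avpr2, at 13.4%, and the overlapping gene Arhgap4, at 5.31%, lie to the right of every list median.

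The diabetic effect was then compared between tissues in 1 model of the 4 groups, where a scale that a gene carries throughout 1 table drops out. The effect was higher in glomeruli than in cortex for 8 of 9 members, against 18.8% of 16491 genes called in this direction and 35.1% in either. Aqp4 and Aqp7, too low for a test in glomeruli alone, entered this model through the cortex libraries, and Aqp6 and Avpr2 had reached the glomerular test only through diabetic samples, so this count supports nothing further. The differences in log2 units were 2.09 ± 0.55 for Aqp1, 3.33 ± 0.89 for Aqp2, 3.24 ± 0.78 for Aqp3 and 3.34 ± 1.16 for Aqp4. They were 3.92 ± 1.00 for Aqp6, 1.86 ± 0.59 for Aqp11 and 4.08 ± 0.59 for Avpr2, with edgeR adjusted p values from 0.000210 for Avpr2 to 0.0406 for Aqp4. Aqp7 was called too (edgeR adjusted p = 0.00317), and its fitted difference rests on controls without counts. Of 27 alternatives, the call was lost in 17 for Aqp4 and in 5 for Aqp11, which changed sign in 1 more. It was lost in 3 for Aqp2 and for Aqp6, in 2 for Aqp7, and in 1 for Aqp1 and for Aqp3. For Avpr2 it held in all 27. For Avpr1a the difference was 0.48 ± 0.48 (adjusted p = 0.477). Without diabetic glomerular libraries 1, 3 and 4, Avpr2 alone was called (3.34), and Aqp2 and Aqp3 were at 0.02 and 0.03.

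**Figure D5:**
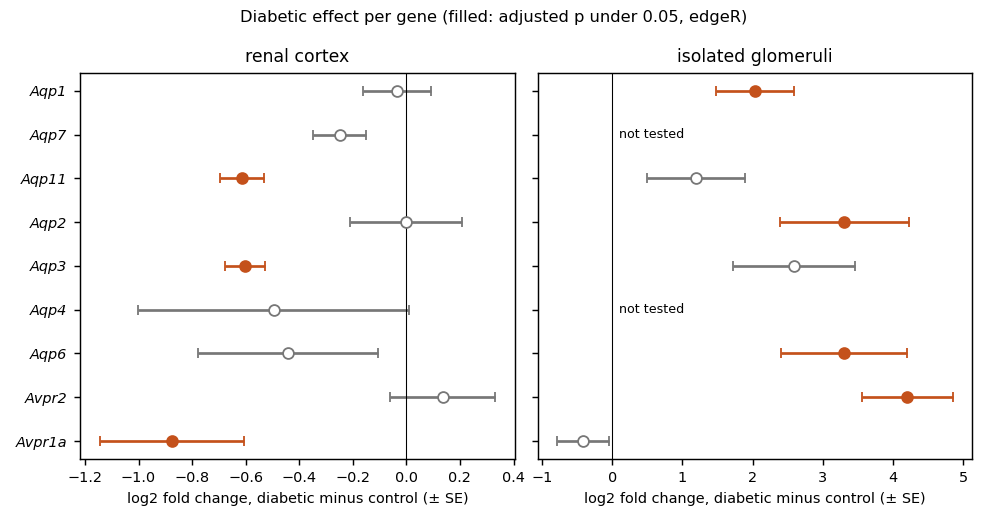
Log2 fold change of diabetic against control ± SE for each gene in renal cortex (left) and isolated glomeruli (right), filled where the edgeR adjusted p was under 0.05. Aqp3, Aqp11 and Avpr1a are filled to the left of 0 in cortex, and Aqp1, Aqp2, Aqp6 and Avpr2 to the right of 0 in glomeruli.

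Between the tissues of control mice, all 9 members were lower in glomeruli than in cortex, where 39.7% of genes were called lower and 78.4% in either direction. Aqp4 and Aqp7 entered here, too, only through cortex, where they are high, so this count describes the members and supports nothing. Each tissue has its own table with its own counting, so the differences between tissues can include that of the tables. For Aqp6, Aqp11 and Avpr2 the implied gene lengths also differed between the tables. The difference was smallest for Avpr1a, at -1.16 ± 0.35 on the log2 scale (edgeR adjusted p = 0.00827). For the other members with counts in control glomeruli it ran from -6.13 (Avpr2) to -8.67 (Aqp6), with Aqp1 at -7.64 and Aqp2 at -6.56. Aqp7 was at least 1672-fold lower, taken against the floor of 3 counts. In diabetic mice 8 of 9 members were lower in glomeruli, where 37.0% of genes were (74.7% in either direction), and Avpr1a was not called (-0.68 ± 0.35, adjusted p = 0.0934). The V2 receptor gene, at -2.05 ± 0.36, had the smallest difference among those called, and Aqp2 was at -3.23 ± 0.65.

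Genes of the same pathways were taken from lists. Their counts of calls stand beside shares over all genes tested. These were 20.1% in cortex (9.29% called lower) and 37.5% in glomeruli (19.4% called higher). Among other aquaporins and related receptors, Aqp8 rose in diabetic cortex from 0.587 ± 0.386 to 2.35 ± 0.854 CPM (n = 4 each, 2.01 ± 0.49, edgeR adjusted p = 0.0186). The oxytocin receptor gene Oxtr fell in diabetic glomeruli from 2.09 ± 0.303 to 0.717 ± 0.0783 CPM (n = 3 each, -1.54 ± 0.26, adjusted p = 0.00524). Of 24 genes of V2 receptor and cyclic AMP signalling, 3 were called higher and 3 lower in cortex, with a median of -0.07. The protein kinase A subunit genes Prkacb (-0.32 ± 0.05) and Prkar2a (-0.29 ± 0.06) and the adenylyl cyclase gene Adcy9 (-0.48 ± 0.09) fell there. Arrb2, an arrestin that turns off and internalises receptors, rose (0.82 ± 0.14).

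In glomeruli 12 of these 24 genes fell and 2 rose, against 37.5% of all genes tested called in either direction. Their median was -0.42, beside the mesangial and smooth muscle markers that fell in the same samples. The phosphodiesterase genes Pde3a (-2.23 ± 0.22) and Pde4d (-1.38 ± 0.14), whose products break down cyclic nucleotides, fell, as did Adcy5 (-1.98 ± 0.21) and the prostaglandin receptor gene Ptger4 (-0.74 ± 0.10). Without diabetic libraries 1, 3 and 4, 6 fell and none rose. Of 15 genes of V1a receptor and phospholipase C signalling, 2 rose and 2 fell in cortex, where the calcium channel gene Itpr2 fell (-0.45 ± 0.07) and Rgs2, a brake on receptor signalling, rose (0.72 ± 0.13). In glomeruli 3 rose and 4 fell. Itpr3 rose from 84.7 ± 9.31 to 249.6 ± 13.1 CPM (1.56 ± 0.11), and Rgs5 (-2.35 ± 0.38) and Rgs4 (-1.84 ± 0.23) fell. Without diabetic libraries 1, 3 and 4, 1 rose and 1 fell.

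Of 21 genes of AQP2 trafficking and turnover, only Stx4a, which encodes a syntaxin of the vesicle fusion machinery, was called in cortex (0.44 ± 0.06, edgeR adjusted p = 0.00144). Without control library 4, 5 of the 21 were called lower and 1 higher. In glomeruli 7 rose and 6 fell, against 37.5% of all genes tested called in either direction. Stx3 (1.22 ± 0.09), the ubiquitin ligase gene Nedd4l (1.00 ± 0.11) and the motor gene Myo5b (1.74 ± 0.30) rose, and Stub1, which encodes another ubiquitin ligase, fell (-0.52 ± 0.09). Without diabetic libraries 1, 3 and 4, 4 rose and none fell.

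Transcription regulators of the collecting duct moved in both directions in cortex, where 3 of 13 rose and 4 fell. Tfcp2l1 rose (0.49 ± 0.08), as did Elf3 (0.89 ± 0.19) and Nfatc1 (0.44 ± 0.10), and the cyclic AMP response factor gene Creb1 fell (-0.34 ± 0.08). In glomeruli 5 of 11 rose and none fell, with a median of 0.43. Without diabetic libraries 1, 3 and 4, 5 of 12 rose, 4 of them shared with the first 5, and the median was 1.83. Grhl2 went from 0.167 ± 0.0828 to 22.6 ± 5.63 CPM (7.20 ± 0.42, edgeR adjusted p = 0.000347), Elf3 from 0.767 ± 0.499 to 26.4 ± 7.01 CPM (5.18 ± 0.53) and Tfcp2l1 from 4.49 ± 1.82 to 98.7 ± 38.0 CPM (4.47 ± 0.40).

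Of 16 genes of urine concentration, 3 fell in cortex and none rose. They were the sodium channel subunit genes Scnn1g (-0.51 ± 0.09) and Scnn1b (-0.38 ± 0.07) and the chloride channel subunit gene Bsnd (-0.36 ± 0.10). In glomeruli 11 of 15 rose and 1 fell, with a median of 3.86, and without diabetic libraries 1, 3 and 4 the numbers were 5 and 1, with a median of 0.62. The taurine transporter gene Slc6a6 was the one that fell, from 6177 ± 2399.7 to 619 ± 57.0 CPM (-3.32 ± 0.33). The aldose reductase gene Akr1b3 rose (1.33 ± 0.13), as did the sodium channel subunit gene Scnn1a (4.56 ± 0.41).

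The genes with the most similar profile to each member were found as the smallest root mean square difference of centred log2 CPM over the 14 samples of both tissues. These samples share the large difference between tissues, so the likeness is a description. Aqp7 had the closest match, Slc5a8 at 0.21 log2 units, followed by Slc3a1 and Slc27a2. Aqp11 was closest to Nat8f1 (0.24), Aqp2 to Stk32b (0.29), Aqp3 to Fam13a (0.31), Avpr2 to Mapk15 (0.32) and Aqp1 to Khk (0.32). The nearest gene to Aqp4 was Aqp6 (0.50), and the nearest to Aqp6 was Aqp1 (0.43). Avpr1a was closest to Tmem64 (0.39).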

How the data were processed

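Messenger RNA of glomeruli and renal cortex was sequenced from 1.3 µg of total RNA per library with the SMARTER kit, per the labels' protocols. The builds named in the submitters' processing notes are GRCm38 and mm10. Aligner, counting tool and use of strand: not given in the sources used here. The deposited glomerular table holds raw counts by gene symbol. The deposited cortex table is keyed by Ensembl identifier and, from the values, holds estimated counts that the authors made whole. The authors also deposited FPKM values of both tissues, used here for levels between genes and as an alternative.

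Symbols and positions came from GENCODE M21 (20066 glomerular symbols and 31953 cortex identifiers matched), and 19022 genes joined the tables. Genes were tested with edgeR 4.0.16 in R 4.3.3 (filterByExpr, TMM, robust glmQLFit, glmQLFTest, Benjamini-Hochberg adjustment over all genes tested, threshold 0.05), each tissue alone and, between tissues, in 1 model of the 4 groups. The scripts were tested on simulated data. CPM values use TMM-scaled library sizes, whose scaling differs between these fits. Summing glomerular libraries 3 and 4 of control and 1 and 4 of diabetic mice reduces the 4 against 4 of the labels to 3 against 3, since pairs more than 5 times closer than the others may be 1 library. Separate libraries were an alternative, as were library totals, DESeq2 1.42.0 with its size factors, no filter, limma 3.58.1 on log2(FPKM + 1) or log2(FPKM + 0.1), a replicate block and leaving libraries out.

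All members are named, with up to 4 genes per pathway list and tissue by smallest adjusted p (some are not reported here), and the 3 genes most like each member (mean log2 CPM of 1 or more). The members and lists were chosen with earlier results of these data known. Lists are described by counts and medians with no test. The floor of 3 counts reflects counting error alone, because no molecular identifiers separate molecules from copies. Promoters came from RefSeq, and the sequence of Aqp4 is not reported here.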

Additional observations from a re-analysis of the deposited data

Results flagged for a closer look

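In control cortex, Aqp1 and Aqp6 each had 1 library far from the other controls. For Aqp1 it stood at 1059 CPM and for Aqp6 at 95.8 CPM, in both cases library 4. The gap to the next library was 0.883 of the range of the group for each gene, above the critical value of 0.829 for 4 samples. In all, 18 groups of 4 were examined this way (each of 9 genes in control and in diabetic cortex), and chance alone marks about 1 group in 20. The same library had medulla markers at 2.39 times the level of the other controls, and their part in these values was not tested.

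The diabetic effect differed between glomeruli and cortex for 8 genes by edgeR's test of the difference itself, on the log2 scale. All 8 were higher in glomeruli, against 18.8% of 16491 genes called in this direction and 35.1% in either. Aqp4 and Aqp7 entered this model through the cortex libraries. Aqp6 and Avpr2 reached the glomerular test only through diabetic samples, so the count supports nothing further. The differences were 2.09 for Aqp1 (adjusted p = 0.0114), 3.33 for Aqp2 (0.0116), 3.24 for Aqp3 (0.00679) and 3.34 for Aqp4 (0.0406). They were 3.92 for Aqp6 (0.00931), 1.86 for Aqp11 (0.0268) and 4.08 for Avpr2 (0.000210). For Aqp7 the fitted value was 7.26 (0.00317), which depends on the prior count because its control glomeruli held no counts. The call of Aqp4 was lost in 17 of 27 alternatives and that of Aqp11 in 5, with its sign changed in 1 more. Avpr2 remained past the threshold without diabetic glomerular libraries 1, 3 and 4, and the other 7 did not.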

How the results depend on the processing

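In cortex, Aqp3 and Aqp11 were called lower in all 15 alternatives and Avpr1a in 3. With the replicate number as a block, 2375 genes were called in place of 3856, and 2 members in place of 3. Numbers were not used to pair the libraries, since correlations of same-numbered libraries were mostly under 0.1. In no pair of groups did every library correlate best with its own number. That check used the separate glomerular libraries, some nearly identical. It cannot exclude that same-numbered libraries came from the same animal. In the other comparisons the block moved no count of calls by over 1.5 times (glomeruli, separate libraries, 7786 to 6992). Small cortex differences changed sign. Aqp1 went from -0.04 to 0.022 on both FPKM scales. Aqp2 went from -0.00 to 0.031 with library totals, 0.00 with DESeq2 size factors, DESeq2 and no filter (0.0011, 0.0014 and 0.0047), 0.077 and 0.078 on the FPKM scales and 0.041 with the block.

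In glomeruli, Avpr2 was called in all 19 alternatives. Of the members, 1 was called with log2(FPKM + 1), 2 with log2(FPKM + 0.1) and 1 without diabetic libraries 1, 3 and 4, which left 2293 genes called in all in place of 5717. There Aqp11 was at -0.91 and Aqp3 at -0.50. For the difference between tissues, 4 members were called on either FPKM scale, and 1 without those libraries (3798 genes in place of 5782), where Aqp11 was at -0.41 and Avpr1a at -0.42. The tests then had fewer samples.

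Library totals in place of TMM moved the share of calls that were higher from 51.6% to 72.6% in glomeruli, from 53.6% to 69.0% for the difference between tissues, and in cortex from 53.7% to 63.5%. The FPKM scales gave 70.8% and 71.5% in glomeruli, 64.3% and 65.6% for that difference, and 65.3% and 65.4% in cortex. In glomeruli the median of all genes moved from 0.01 to 0.20, and the 4 calls of members kept their direction.

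Leaving out 1 library or summed sample gave 2528 to 4715 calls and 2 to 3 members in cortex, 3911 to 5661 and 1 to 8 in glomeruli, 4886 to 5824 and 6 to 8 for the difference between tissues, 12371 to 12980 and 9 between control tissues, and 11558 to 12445 and 8 to 9 between diabetic tissues. Cortex values then ranged from -0.10 to 0.12 for Aqp1, from -0.11 to 0.25 for Aqp2, from -0.60 to 0.041 for Aqp6, from -0.028 to 0.30 for Avpr2 and from -0.058 to 0.66 for Oxtr. The difference between tissues ranged from -0.021 to 0.77 for Avpr1a. Counts of 10 or fewer per library limit Aqp7, Aqp4, Aqp6 and Avpr2 in control glomeruli.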
